A study of Bos taurus with 24 samples.

Results

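The primitive endoderm genes described here were 7 genes, chosen by name: GATA6, GATA4, SOX17, PDGFRA, HNF4A, FOXA2 and RSPO3. All 7 were present among the 24621 genes of the count table, and their levels were followed through 24 single bovine early blastocysts. Only 3 of the 7, GATA6, PDGFRA and RSPO3, had enough counts for the comparisons with in vivo derived embryos under the count limit used for all genes, and 2 of the 7, GATA6 and PDGFRA, for the comparison of both media. The other members were read from their raw counts.

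The primitive endoderm, called hypoblast in cattle, is the second lineage to separate within the blastocyst. Fibroblast growth factor (FGF) signals bias cells of the inner cell mass towards hypoblast, in which GATA6 is kept. The hypoblast later lines the blastocoel as yolk sac endoderm, while the remaining cells keep NANOG and SOX2 and form the epiblast. GATA6 comes first in this series of transcription factors, PDGFRA, a receptor for platelet-derived growth factor (PDGF), is an early target, and SOX17, GATA4, FOXA2 and HNF4A follow as the endoderm matures. RSPO3 is a secreted R-spondin that strengthens WNT signalling at receiving cells.

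The embryos were Holstein, and semen of a single bull was used throughout. The 8 in vivo derived embryos (A1 to A4 and A8 male, A6, A7 and A9 female) were flushed from superovulated cows, fewer in number than the embryos. The 8 embryos produced in serum-containing medium (B1, B5 and B7 male, B2, B3, B4, B6 and B8 female) came from slaughterhouse oocytes matured with 20% fetal bovine serum (FBS) and cultured in synthetic oviduct fluid with 5% FBS. The 8 embryos produced in serum-free medium (C1, C2, C4, C6 and C7 male, C3, C8 and C10 female) were matured with 20 ng/mL epidermal growth factor and cultured in the same fluid with 0.4% bovine serum albumin and insulin, transferrin and selenium (5 µg/mL insulin). In vitro embryos were collected between day 6 and day 7 after insemination, in several experiments, and all embryos were graded as early blastocysts of the best quality. Each embryo was a replicate. Neither the dam, the experiment nor the sequencing lane of an embryo is in the labels, so p-values measure the spread between embryos, and part of this may be shared by embryos of a dam or an experiment.

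Each library held between 3253051 and 9000447 counts (median 4454031), so that 3 counts, the upper limit that a count of 0 allows, amounted to between 0.342 and 0.921 counts per 1000000 of normalised library size (CPM), counting error only. The libraries were made from whole embryos after PCR amplification without molecular identifiers. Fewer hypoblast cells and less RNA per cell cannot be told apart in such samples. The summed level of 11 trophectoderm markers was 7530 to 14750 CPM in the in vivo derived embryos, 327 to 5126 in the serum embryos and 4999 to 28859 in the serum-free embryos. This sum moved with the culture groups, and its part in the results was not tested.

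Measured against their name, some members were detected throughout and others hardly at all. GATA6 and PDGFRA had counts in 24 of 24 embryos (2071 and 27511 counts in all) and RSPO3 in 23 (786 counts). HNF4A had counts in 16 embryos (271 counts) and GATA4 in 13 (93 counts). FOXA2 had 7 counts in 5 embryos, at most 2 in any embryo. SOX17, the factor that marks the committed hypoblast, had a single count in each of C1 and C2 and 0 in the other 22 embryos. The late defining markers SOX17 and FOXA2 were thus at or near 0 in all 3 groups, and a difference in either was not detectable at this depth.

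**Figure D1:**
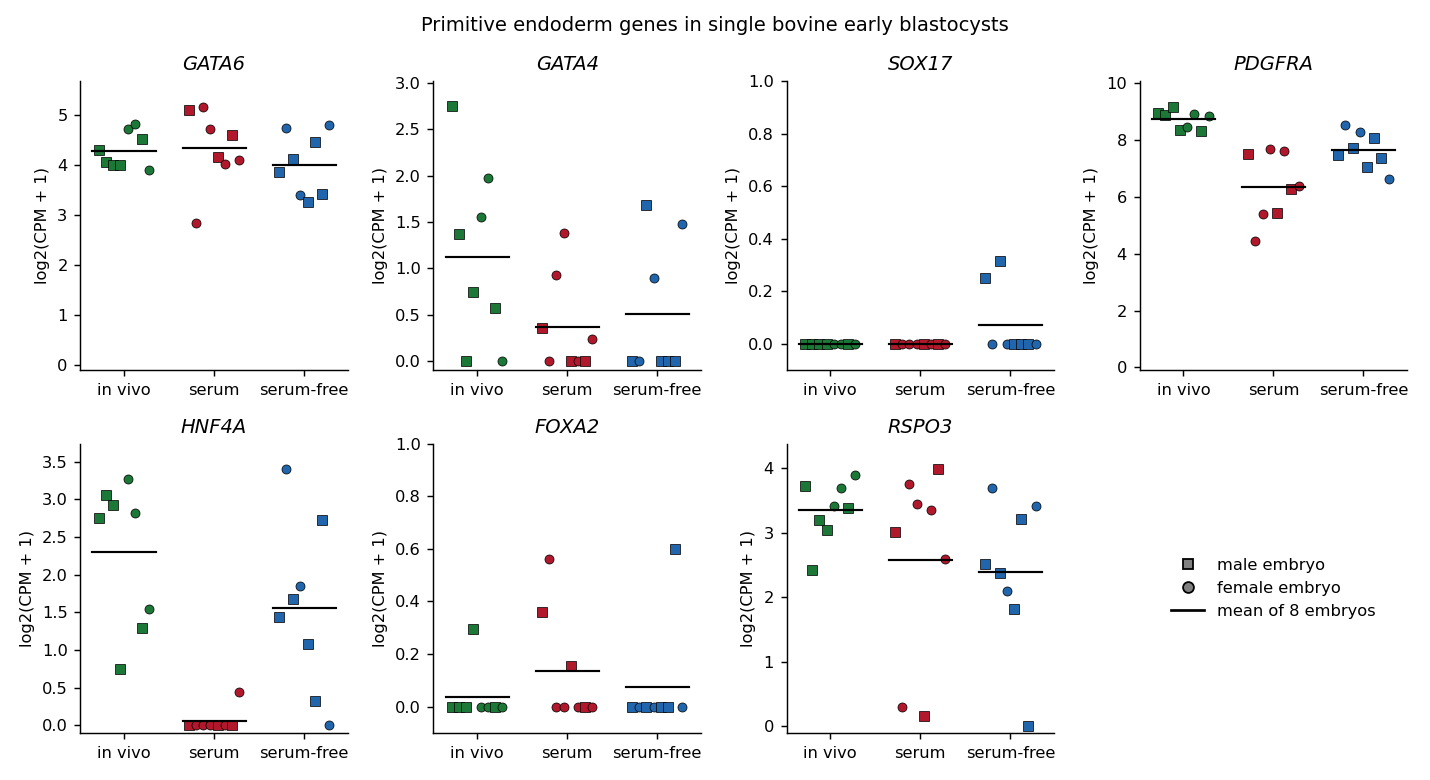
Level of each of the 7 genes in each embryo, as log2(CPM + 1) on the vertical axis, for in vivo derived (green), serum (red) and serum-free (blue) embryos, with squares for males, circles for females and a line at the mean of 8 embryos. PDGFRA and HNF4A stood lower in serum than in vivo with no overlap, GATA6 overlapped throughout, and SOX17 and FOXA2 lay at or near 0.

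The comparison of each medium with in vivo development asks how far in vitro production shifts expression, and PDGFRA was the member over the count limit that changed. In the in vivo derived embryos its lowest, median and highest levels were 320, 470 and 574 CPM. In serum they were 20.9, 79.6 and 204 CPM, and in serum-free medium 99.4, 195 and 367 CPM. Every in vivo derived embryo stood above every serum embryo, whereas the serum-free embryos overlapped with both other groups. The means were 436 ± 92.1, 106 ± 76.3 and 216 ± 92.4 CPM (SD, n = 8 each).

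By the quasi-likelihood test of edgeR, with p-values adjusted over the whole table after Benjamini and Hochberg, PDGFRA was lower in serum than in vivo, with a log2 fold change (in vivo over serum) of 2.04 (SE 0.38, adjusted p = 0.00101). It was 1 of 3 members tested there, against 13.8% of all 7339 genes tested that were called, meaning an adjusted p under 0.05 and at least a 2-fold change. Groups that did not overlap were seen for 7.11% of these genes. The call held under all 10 other settings and without each of the 16 embryos in turn.

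PDGFRA was also lower in serum-free medium than in vivo, by a log2 fold change of 1.01 (SE 0.22, adjusted p = 0.00952, quasi-likelihood test). It was again 1 of 3 members tested, where 2.2% of all genes were called. This value sat on the 2-fold limit. The fold change fell below 2-fold, or the adjusted p rose to 0.157, under 6 of 10 other settings. It was also lost when A1, A2, A3, A7, A9, C1, C2, C4, C7 or C8 was left out, with log2 fold changes of 0.89 to 1.17 over all 16 omissions.

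Between both media PDGFRA differed by a log2 fold change of -1.04 (serum over serum-free, SE 0.41), which missed the threshold (adjusted p = 0.0866, quasi-likelihood test). No member of 2 tested was called, against 8.91% of all genes. Without B4, one of the serum embryos with the highest level, the value was -1.24 (adjusted p = 0.0465), and it was also called with DESeq2 (-1.03, adjusted p = 0.0451) and in a single fit over 24 embryos (-1.01, adjusted p = 0.0375). The order of the means was in vivo, serum-free, serum, and the neighbours serum-free and serum were not separated in the quasi-likelihood fit.

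The serum embryos varied widely in PDGFRA. B2, B3 and B5 had 20.9, 40.9 and 42.3 CPM, B7 and B8 had 75.8 and 83.4 CPM, and B1, B6 and B4 had 183, 197 and 204 CPM. Males and females were found at both ends of this range. The in vivo derived embryos, by contrast, spanned less than a 2-fold range.

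**Figure D2:**
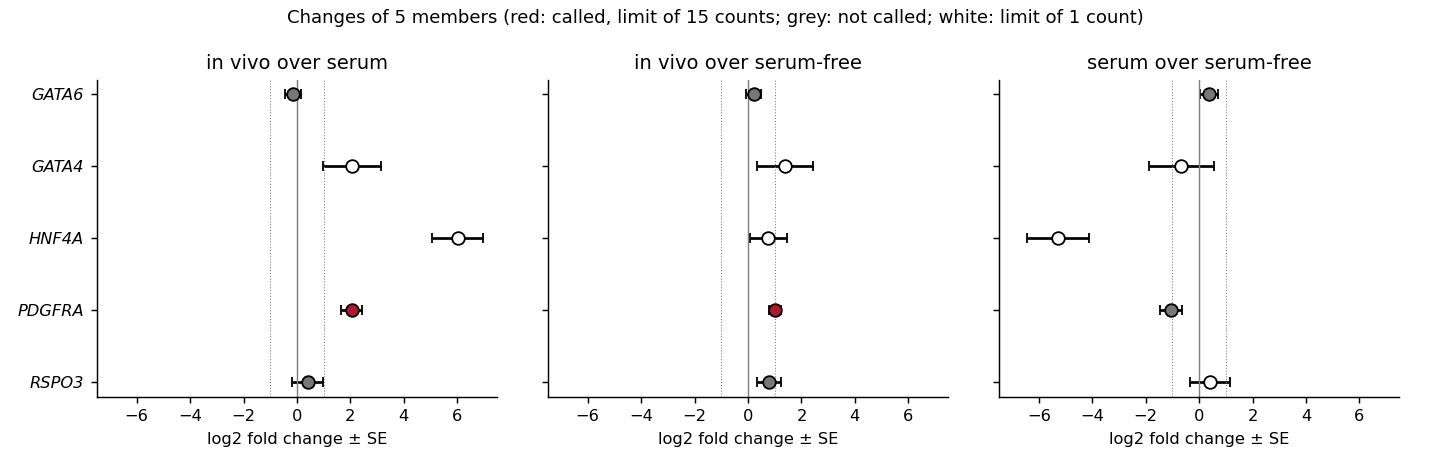
Log2 fold change with its SE for 5 members in the 3 comparisons of all embryos; red points were called under the limit of 15 counts, grey points were not, and white points come from the fit with a limit of 1 count. PDGFRA was called against both media, and HNF4A showed the widest change, at 6.01 in vivo over serum.

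HNF4A, the nuclear receptor of visceral endoderm and liver that switches on genes of lipid transport, was nearly undetected in serum. Its counts in vivo were 21 in A1, 42 in A2, 33 in A3, 3 in A4, 36 in A6, 27 in A7, 6 in A8 and 8 in A9. In serum, 7 embryos had 0 counts and B8 had 2. In serum-free medium the counts were 9 in C1, 9 in C2, 15 in C3, 4 in C4, 1 in C6, 22 in C7, 0 in C8 and 33 in C10.

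All 8 in vivo derived embryos thus had HNF4A counts, 7 of 8 serum-free embryos did, and 1 of 8 serum embryos did. The in vivo and serum values did not overlap (lowest 0.677 CPM, highest 0.359 CPM), as for 2.89% of the 19159 genes with any count. The margin was narrow at its edge: the 3 counts of A4 equal what a count of 0 allows, and this limit reached 0.921 CPM in the serum embryos.

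Over the group, 176 counts in vivo stood against 2 in serum, a ratio of 101 after scaling by normalised library size, with a 95% exact interval of 27.6 to 843 that covers counting error only. The serum-free embryos had 93 counts, with a ratio to serum of 55.4 (14.9 to 464). The mean levels were 4.81 ± 3.02 CPM in vivo, 0.0448 ± 0.127 CPM in serum and 2.88 ± 3.22 CPM in serum-free medium (SD, n = 8 each).

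HNF4A was under the limit of 15 counts, so it was tested in a fit of all genes with at least 1 count and by a two-sided exact permutation test on log2(CPM + 1). It was lower in serum than in vivo (log2 fold change 6.01, SE 0.94, adjusted p = 0.00029 in the quasi-likelihood test; exact permutation p = 0.000155, the smallest that 8 against 8 embryos can give). With PDGFRA it was 1 of 2 members called among 6 with any count, where 7.32% of all genes were called.

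It was also lower in serum than in serum-free medium (log2 fold change -5.27, SE 1.16, adjusted p = 0.0131, quasi-likelihood test; exact permutation p = 0.00264). It was the single member called of 7, against 2.97% of all genes. Between in vivo and serum-free embryos the difference of 0.76 (SE 0.69) was within the spread (adjusted p = 0.623, quasi-likelihood test; exact permutation p = 0.177), where 1 member of 7, PDGFRA, and 0.772% of all genes were called. In all, 10 permutation tests were run on HNF4A and GATA4, counting those within each sex. The log2 fold changes of HNF4A depend on a prior count added to groups near 0, so their size is no measured ratio.

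**Figure D3:**
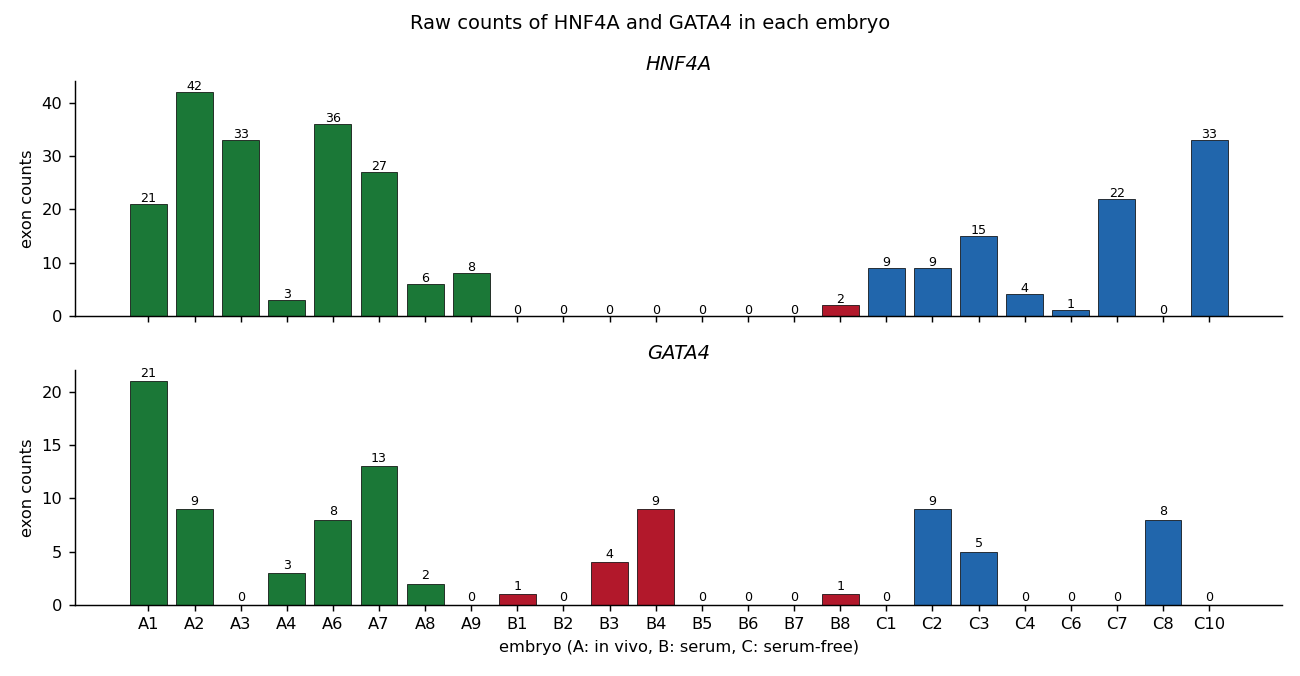
Raw exon counts of HNF4A (top) and GATA4 (bottom) in each embryo, with the count printed above each bar, for in vivo derived (green), serum (red) and serum-free (blue) embryos. HNF4A had 2 counts over the 8 serum embryos, against 176 in vivo and 93 in serum-free medium.

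GATA6, the first factor of the lineage, did not differ detectably between culture conditions. Its lowest, median and highest levels were 13.9, 17.2 and 27.3 CPM in vivo, 6.17, 20.1 and 34.8 CPM in serum and 8.64, 15.04 and 26.7 CPM in serum-free medium. The groups overlapped over most of their range. The means were 19.1 ± 5.16, 21.4 ± 9.70 and 16.4 ± 7.33 CPM (SD, n = 8 each).

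The log2 fold change of GATA6 was -0.16 in vivo over serum (SE 0.30, adjusted p = 0.709), 0.21 in vivo over serum-free (SE 0.28, adjusted p = 0.722) and 0.37 serum over serum-free (SE 0.35, adjusted p = 0.481, quasi-likelihood test in each). Over all alternatives and omissions these stayed between -0.33 and -0.02, 0.10 and 0.44, and 0.25 and 0.53. The serum mean of GATA6 was thus no lower than the in vivo mean, in the same embryos in which PDGFRA and HNF4A were lower. No order of the 3 groups could be read from its levels.

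RSPO3 was detected at 4.38 to 13.9 CPM in all in vivo derived embryos. In serum, 6 embryos had 5.02 to 14.7 CPM, and B2 and B5 had a single count each. In serum-free medium, 7 embryos had 2.51 to 11.9 CPM and C7 had 0 counts. The embryos near 0 were thus all produced in vitro, and the others overlapped with the in vivo range. B2 and B5 were also among the lowest 3 serum embryos for PDGFRA.

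The RSPO3 means were 9.61 ± 3.07 CPM in vivo, 7.33 ± 5.33 in serum and 5.55 ± 3.99 in serum-free medium (SD, n = 8 each). Neither comparison with in vivo passed the test (log2 fold change 0.40, SE 0.57, adjusted p = 0.627 over serum; 0.78, SE 0.46, adjusted p = 0.343 over serum-free; quasi-likelihood test). Between both media it was tested under the limit of 1 count (0.41, SE 0.74, adjusted p = 0.798, quasi-likelihood test).

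GATA4, which follows GATA6 in endoderm, was found at low counts. In vivo, 6 of 8 embryos had counts (21 in A1, 13 in A7, 9 in A2, 8 in A6, 3 in A4 and 2 in A8). In serum 4 of 8 had counts (9 in B4, 4 in B3 and 1 each in B1 and B8), and in serum-free medium 3 of 8 (9 in C2, 8 in C8 and 5 in C3). The groups overlapped, with embryos at 0 in each.

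Summed, GATA4 had 56, 15 and 22 counts. The ratio of in vivo to serum, scaled by normalised library size, was 4.30 (95% exact counting interval 2.40 to 8.18), but the embryos varied too much for the difference to pass a test (exact permutation p = 0.0746; adjusted p = 0.232 in the quasi-likelihood fit with a limit of 1 count). The corresponding exact permutation p was 0.174 for in vivo against serum-free and 0.680 for both media. The FOXA2 counts were 1 in A4, 1 in B1, 1 in B5, 2 in B2 and 2 in C7. No group stood apart for FOXA2, a pioneer factor of endoderm.

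The study also compared the sexes, and within a sex PDGFRA was the member over the limit of 15 counts with calls between culture conditions. In males, PDGFRA was 438 ± 111 CPM in vivo (n = 5), 100 ± 73.6 in serum (n = 3) and 190 ± 51.2 in serum-free medium (n = 5). In females it was 434 ± 70.0 (n = 3), 109 ± 86.3 (n = 5) and 260 ± 142 (n = 3). The means had the same order in both sexes.

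PDGFRA was lower in serum than in vivo in males (log2 fold change 2.12, SE 0.43, adjusted p = 0.00647, quasi-likelihood test), where 13.3% of all genes were called. In females the value was 1.96 (SE 0.62, adjusted p = 0.137) and 0.418% of all genes were called. That share depended on the test: of 8138 genes, 34 were called here, 467 with edgeR's exact test and 585 with DESeq2. With an embryo left out, the number called ran from 2 (without A6) to 446 (without B2). Without B2 the female value was 1.72 (adjusted p = 0.0444, quasi-likelihood test). Females were 3 against 5 and males 5 against 3 embryos.

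In serum-free medium PDGFRA was lower than in vivo in males (1.18, SE 0.21, adjusted p = 0.0201, quasi-likelihood test), with 0.966% of all genes called. The call was lost without A1 (1.12, adjusted p = 0.0543) or A3 (1.07, adjusted p = 0.0511). In females the value was 0.74 (SE 0.38, adjusted p = 0.416), with 0.304% of all genes called. With edgeR's exact test, 199 of 7662 genes were called in males and 192 of 8211 in females, against 74 and 25 here.

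The difference between the sexes in these changes, tested as an interaction, was 0.13 for serum (SE 0.81, adjusted p = 0.998) and 0.44 for serum-free medium (SE 0.44, adjusted p = 0.900, quasi-likelihood test). None of the 8446 and 8425 genes tested passed these interactions in that test (0 and 0% called), with 436 and 555 genes at an unadjusted p under 0.05. DESeq2 called 14 and 5 genes, none of them a member, and the quasi-likelihood test called 3 genes for serum without B1. No other member was called in either sex under the limit of 15 counts. A response that differs between the sexes was therefore not shown for any member.

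HNF4A followed the pooled pattern within each sex. Males had 105 counts in vivo and 0 in serum, and females had 71 and 2. The exact permutation p was 0.0357 in each sex, the smallest that 5 against 3 embryos can give. Any 2 groups of these sizes without overlap give this value. In the quasi-likelihood fit with a limit of 1 count HNF4A was called in males (adjusted p = 0.00893), where 6.36% of all genes were called, and not in females (adjusted p = 0.0823), where 0.316% were. Its interaction had an adjusted p of 0.893.

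Males and females of the same culture condition did not differ in any member tested. For PDGFRA the log2 ratio of males to females was 0.01 in vivo (SE 0.20, adjusted p = 0.982), -0.13 in serum (SE 0.73, adjusted p = 0.995) and -0.44 in serum-free medium (SE 0.35, adjusted p = 0.820, quasi-likelihood test). GATA6 differed by -0.36, 0.31 and -0.56, and none was called. Of all genes, 0.653% were called in vivo, 0.173% in serum and 0.139% in serum-free medium.

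Across the 24 embryos the detected members did not move as a single block. Of the 6 pairs formed by GATA6, PDGFRA, HNF4A and RSPO3, GATA6 and RSPO3 had the highest r after subtracting the culture means, with Pearson's r of 0.69 (Spearman's rank correlation 0.63) in log2(CPM + 1), 0.71 after subtracting the culture means and 0.58 without the 2 embryos farthest from the median of GATA6. Within groups r was 0.31 in vivo, 0.71 in serum and 0.81 in serum-free medium. B2, with the lowest GATA6 level of all, was also 1 of the 3 embryos with almost no RSPO3.

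PDGFRA and HNF4A had r of 0.70 (rank correlation 0.77) over all embryos, but 0.28 after subtracting the culture means. Within groups r was 0.59 in vivo, 0.56 in serum-free medium and 0.02 in serum, where HNF4A was at 0 in all embryos but B8. GATA6 had r of 0.15 with PDGFRA and -0.07 with HNF4A. These correlations are descriptions over 24 points that share libraries, depth and culture.

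**Figure D4:**
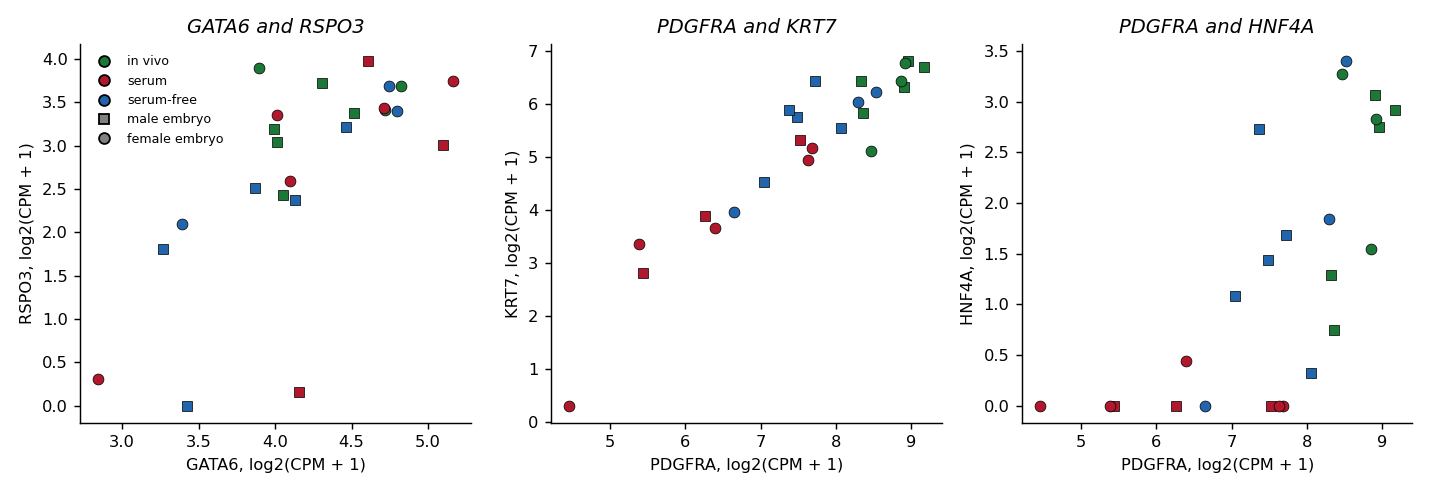
Levels in log2(CPM + 1) of GATA6 and RSPO3 (left), PDGFRA and KRT7 (middle) and PDGFRA and HNF4A (right), each point an embryo, green in vivo, red serum, blue serum-free, squares male and circles female. PDGFRA and KRT7 lay close to a line (r of 0.94), GATA6 and RSPO3 less so (0.69), and HNF4A stayed at or near 0 over the whole PDGFRA range of the serum embryos.

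Among 7557 genes over the count limit, those most like PDGFRA over 24 embryos were KRT7, an epithelial keratin (r of 0.94), SDHA, a subunit of succinate dehydrogenase (0.91), and IL6R, the receptor of interleukin 6 (0.91). After subtracting the culture means the values were 0.89, 0.79 and 0.82. Within groups, KRT7 had r of 0.65 in vivo, 0.94 in serum and 0.80 in serum-free medium. SDHA had 0.23, 0.97 and 0.27, and IL6R had 0.11, 0.84 and 0.94, so that neither was close to PDGFRA in every group. KRT7 ranged over 33.6 to 111 CPM in vivo, 0.237 to 38.9 CPM in serum and 14.5 to 85.4 CPM in serum-free medium.

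The genes most like GATA6 were TNKS1BP1, a tankyrase-binding protein (0.83), GRAMD1A, a carrier of cholesterol between membranes (0.78), and TMEM189 (0.76). Those most like HNF4A were AHCYL2 (0.87), SLC7A7, a light chain for cationic amino acid transport (0.84), and PIK3C3, a lipid kinase of autophagy (0.82). After subtracting the culture means these 3 had 0.73, 0.70 and 0.61. Within serum, where only B8 had HNF4A counts, they had 0.38, 0.83 and 0.25. Those most like RSPO3 were ARHGEF5 (0.86), TARBP1 (0.80) and IL18BP, which binds interleukin 18 (0.78). With a pseudocount of 0.25, TMEM189 and PIK3C3 fell to rank 4 and AHCYL2 and SLC7A7 changed places. No gene was shared between these 4 groups of 3. For RSPO3 the rank correlations were lower than r, at 0.60, 0.61 and 0.36, and without the 2 embryos farthest from the median of RSPO3 r was 0.76, 0.55 and 0.55. For GATA6 the rank correlations were 0.79, 0.76 and 0.60. Without the 2 embryos farthest from the median of GATA6, r was 0.73, 0.68 and 0.60.

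Other genes of the hypoblast and of visceral endoderm were read from a list of 23. Of its 5 genes over the count limit, 3 were lower in serum than in vivo and none was higher: FN1, the fibronectin of the extracellular matrix (log2 fold change 1.98, SE 0.57, adjusted p = 0.0143), LRP2, the endocytic receptor megalin (1.39, SE 0.26, adjusted p = 0.00115), and DAB2, an adaptor of endocytosis (1.12, SE 0.34, adjusted p = 0.0195, quasi-likelihood test). The median of the 5 was 1.12, against -0.01 over all genes tested, of which 13.8% were called. With the limit of 1 count, the same 3 of 23 genes were called, against 7.32% of all genes. The median over these 23 was 0.16, against 0.04 over all genes. OTX2 (adjusted p = 0.995) and SPARC (-0.68, adjusted p = 0.159, quasi-likelihood test) were not called. The serum embryos varied widely: FN1 had 4356 to 6852 CPM in vivo and 7.12 to 2720 CPM in serum. LRP2 had 641 to 1287 CPM in vivo and 73.8 to 476 CPM in serum. No values with single embryos left out are given for the genes of this list.

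None of the 5 genes over the count limit was called between in vivo and serum-free embryos (median 0.31), where 2.2% of all genes were called. With the limit of 1 count, APOA1 of this list was called as higher in serum-free medium than in vivo. It was 1 of 22 tested, against 0.772% of all genes called. The median of these 22 was -0.28, against -0.03 over all genes. DAB2 (-1.48, adjusted p = 0.0115) and LRP2 (-1.09, adjusted p = 0.0111, quasi-likelihood test) were lower in serum than in serum-free medium. They were 2 of 5 tested there, against 8.91% of all genes called. With the limit of 1 count, APOA1, DAB2 and LRP2 were called as lower in serum, 3 of 22 tested, against 2.97% of all genes. DAB2 had 485 to 691 CPM in vivo, 38.9 to 614 CPM in serum and 572 to 1075 CPM in serum-free medium. Trophectoderm markers were lower in serum as well, and their part in the change of FN1, LRP2 and DAB2 was not tested.

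The basement membrane that hypoblast lays down was followed through 8 genes, of which 7 were in the table (LAMC1 was not found there by that name). None was called between in vivo and serum embryos, where 4 were tested and 13.8% of all genes were called. With the limit of 1 count NID1, a nidogen, was called as lower in serum than in vivo (2.89, adjusted p = 0.035, quasi-likelihood test), at 1.11 ± 1.88 against 8.36 ± 5.298 CPM (SD, n = 8). NID1 was 1 of 7 tested in that fit, against 7.32% of all genes called. In serum-free medium LAMA1, the laminin chain of the earliest basement membranes, was higher than in vivo (-3.46 in vivo over serum-free, SE 0.55, adjusted p = 0.00134) and higher than in serum (-3.04 serum over serum-free, adjusted p = 0.0136). NID2, the other nidogen, was also higher there (-1.87, SE 0.36, adjusted p = 0.00447, and -1.37, adjusted p = 0.0231; quasi-likelihood test). LAMA1 had 18.5 to 96.8 CPM in serum-free medium and at most 12.0 CPM in vivo and 15.1 CPM in serum. It entered both tests only through the serum-free embryos, the group in which it was higher. With the limit of 1 count both LAMA1 calls held (adjusted p = 0.000723 and 0.0194, quasi-likelihood test). LAMA1 and NID2 were 2 of 5 genes tested in each comparison with serum-free medium. Of all genes, 2.2% were called there against in vivo and 8.91% against serum. Both genes were highest in the medium in which PDGFRA took a middle level.

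The FGF to ERK pathway, which biases cells of the inner cell mass towards hypoblast, had 14 genes in the table and no calls. Of 6 tested against in vivo in each medium, FGFR4, the receptor with the most counts, had 122 ± 36.1, 99.6 ± 47.8 and 78.2 ± 30.5 CPM, and FGFR2 had 14.1 ± 5.17, 9.22 ± 7.75 and 7.20 ± 6.36 CPM (in vivo, serum, serum-free, SD, n = 8). DUSP6, a feedback phosphatase of ERK, had the largest change against serum, 1.45 (SE 0.58, adjusted p = 0.0685, quasi-likelihood test), which missed the threshold. Between both media 5 were tested and 0 called. Of all genes, 13.8% were called in vivo against serum, 2.2% in vivo against serum-free medium and 8.91% between both media.

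The partners of PDGFRA were a list of 5, with 1 over the count limit and no calls. PDGFA, a ligand of the receptor, had 6.61 ± 5.15 CPM in vivo, 8.22 ± 3.98 in serum and 16.1 ± 6.37 in serum-free medium (SD, n = 8). Its log2 fold changes were -0.32, -1.29 and -0.97 (adjusted p = 0.667, 0.104 and 0.0514, quasi-likelihood test). Ligand and receptor did not share an order of means: PDGFRA was highest in vivo and PDGFA highest in serum-free medium.

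Among 12 partners of RSPO3, LRP5, a WNT co-receptor, was lower in serum than in serum-free medium (-2.07, SE 0.52, adjusted p = 0.0148, quasi-likelihood test). LRP5 entered this test only through the serum-free embryos, the group in which it was higher. With the limit of 1 count its adjusted p was 0.077 and it was not called. It was the single call of the list over the 3 comparisons. Between both media 2 genes of the list were tested, where 8.91% of all genes were called. LGR4, a receptor of R-spondins, had 9.14 ± 4.48, 5.38 ± 3.33 and 5.94 ± 5.09 CPM, and CTNNB1, the β-catenin of WNT signalling, 694 ± 69.1, 503 ± 120 and 721 ± 132 CPM (SD, n = 8). CTNNB1 differed by less than 2-fold in each comparison (0.46 in vivo over serum, adjusted p = 0.0229, quasi-likelihood test).

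None of 12 known targets of HNF4A was over the count limit. With the limit of 1 count, APOA1, an apolipoprotein of yolk sac and liver, was higher in serum-free medium than in vivo (-3.97, adjusted p = 0.00273) and than in serum (-6.15, adjusted p = 0.000926, quasi-likelihood test). Its levels were 1.76 ± 1.22, 0.346 ± 0.457 and 28.2 ± 33.3 CPM (SD, n = 8). APOA2 was called as higher in serum than in vivo in that fit. APOA1 was 1 of 11 tested in each comparison, where 0.772% and 2.97% of all genes were called. APOA2 was 1 of 12, where 7.32% were called. APOA1 and HNF4A thus differed in pattern: HNF4A was not separated between in vivo and serum-free embryos, and APOA1 was.

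**Figure D5:**
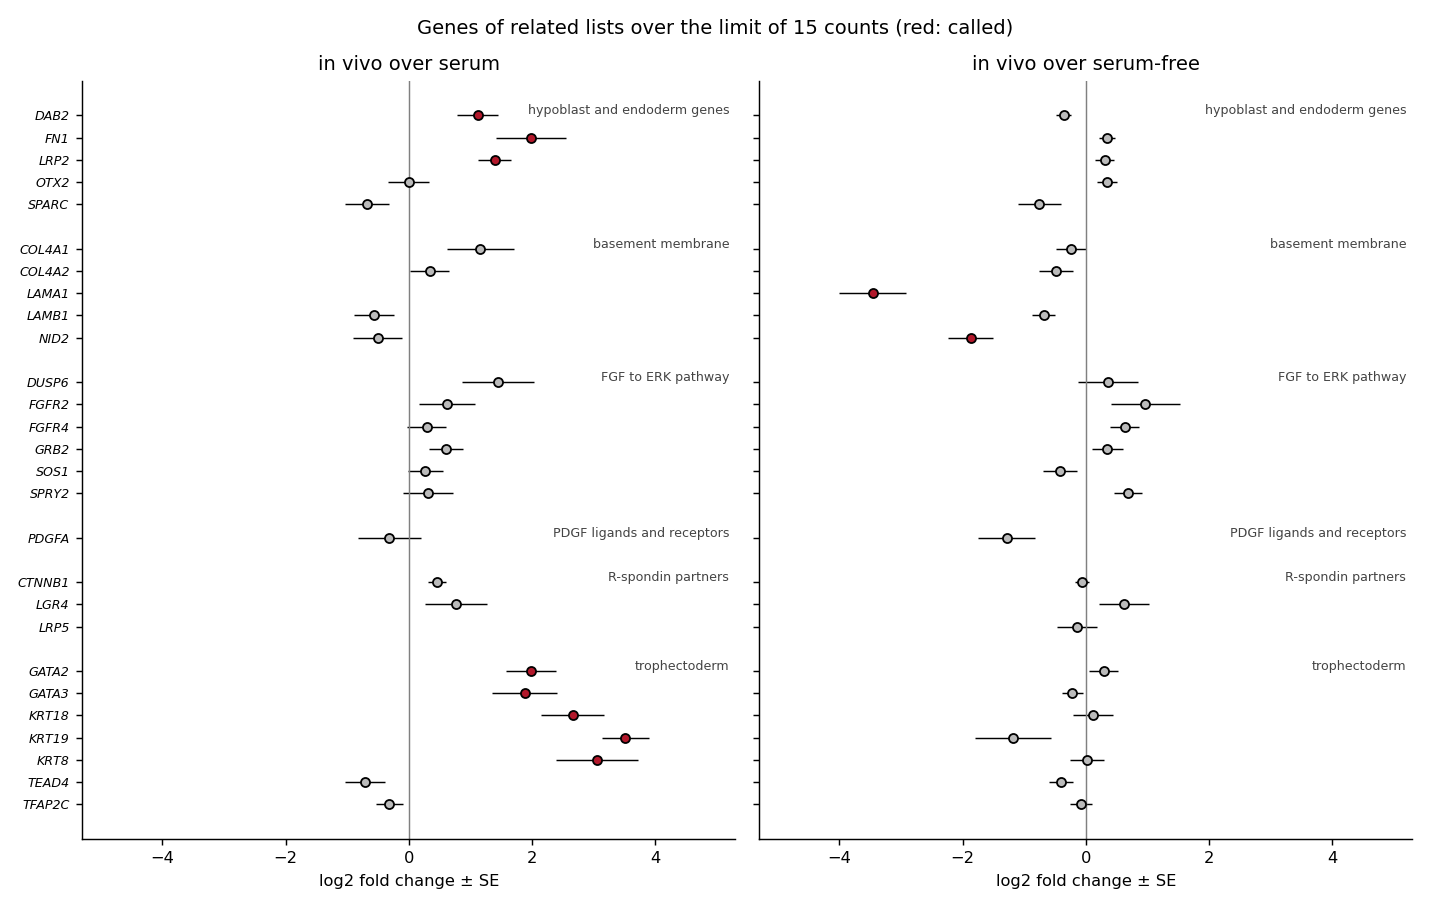
Log2 fold change with its SE for the genes of 6 lists over the limit of 15 counts, in vivo over serum (left) and in vivo over serum-free (right); red points were called. FN1, LRP2 and DAB2 were lower in serum together with 5 trophectoderm genes, and LAMA1 and NID2 were higher in serum-free medium; LAMA1 and LRP5 have no point on the left because they were not tested there.

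Markers of the other cell types of the embryo were read beside the members. Of 11 trophectoderm genes, 7 were tested and 5 were lower in serum than in vivo: KRT19 (3.52), KRT8 (3.05), KRT18 (2.66), GATA2 (1.98) and GATA3 (1.88), with adjusted p of 1.35e-05 to 0.0124 (quasi-likelihood test). The same 5 were lower in serum than in serum-free medium, and none was called between in vivo and serum-free embryos. Of all genes tested, 13.8%, 8.91% and 2.2% were called in these 3 comparisons. The summed trophectoderm level had r of 0.73 with PDGFRA and 0.69 with HNF4A over 24 embryos, but -0.05 with GATA6 and 0.17 with RSPO3. For PDGFRA r was 0.64 within the in vivo derived embryos, 0.55 within serum and -0.43 within serum-free medium. In the same order, HNF4A had 0.74, 0.62 and 0.08, GATA6 had 0.19, 0.35 and -0.29, and RSPO3 had -0.35, 0.49 and -0.67. The pooled values of PDGFRA, GATA6 and RSPO3 thus joined groups of opposite sign.

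Of 11 epiblast genes, 8 were in the table, and their sums overlapped (282 to 380 CPM in vivo, 241 to 429 in serum and 204 to 462 in serum-free medium). Over 24 embryos this sum had r of -0.09 with PDGFRA, -0.01 with HNF4A, 0.32 with GATA6 and 0.18 with RSPO3. Within in vivo, serum and serum-free embryos, RSPO3 had 0.86, 0.58 and -0.46, and GATA6 had 0.47, 0.44 and 0.05. In the same order, PDGFRA had 0.22, 0.01 and -0.20, and HNF4A had 0.14, -0.46 and 0.22. NODAL had no counts. SOX2, the factor of pluripotent cells, was higher in serum than in vivo (-1.25, SE 0.40, adjusted p = 0.0271, quasi-likelihood test). It was 1 of 4 tested, against 13.8% of all genes called. With the limit of 1 count SOX2 was not called (adjusted p = 0.0517, quasi-likelihood test), while NANOG was called as higher in serum than in vivo and TDGF1 as lower in serum-free medium than in vivo. Each was 1 of 7 tested, where 7.32% and 0.772% of all genes were called.

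For genes of cells from outside the embryo, the sums reached at most 47.5 CPM for 9 genes of cumulus or granulosa, 18.8 CPM for 4 of oviduct or uterine epithelium and 43.7 CPM for 3 of blood; TNFAIP6, PAEP and HBA of these lists were not found in the table by those names. With the limit of 1 count OVGP1, the oviduct glycoprotein, was called as higher in serum than in vivo (-2.60, adjusted p = 0.0171, quasi-likelihood test), at 7.80 ± 5.85 against 1.25 ± 1.22 CPM (SD, n = 8). OVGP1 was 1 of 3 oviduct or uterine genes tested, against 7.32% of all genes called. The cumulus gene PTX3 and the oviduct gene FOXJ1 had no counts.

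By a RefSeq annotation of another assembly (ARS-UCD2.0), used for gene order and not for positions, no annotated gene overlapped a member. The gene next to PDGFRA was KIT, the receptor of stem cell factor and a relative of PDGFRA. KIT had 437 to 899 CPM in vivo, 3.68 to 151 CPM in serum and 119 to 766 CPM in serum-free medium. It was lower in serum than in vivo (log2 fold change 3.29, SE 0.55, adjusted p = 0.000491) and than in serum-free medium (-2.42, SE 0.58, adjusted p = 0.0119, quasi-likelihood test). KIT entered each of these tests only through the group in which it was higher. With the limit of 1 count both KIT calls held (3.28, adjusted p = 0.000304, and -2.39, adjusted p = 0.0140, quasi-likelihood test). The r of KIT with PDGFRA was 0.86, and 0.63 after subtracting the culture means. The neighbours of HNF4A, R3HDML and TTPAL, and those of GATA6, RBBP8 and MIB1, were not called in any of the 3 comparisons.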

How the data were processed

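Expression was measured by RNA sequencing of single early blastocysts, 8 per culture condition, from cDNA amplified by PCR. The deposited table gives raw exon counts per gene, with 1 column per embryo. The authors trimmed the paired-end reads, mapped them to the bovine UMD 3.1 build (the Ensembl annotation, with a few imprinted genes added) in CLC Genomics Workbench, and kept fragments mapping uniquely to annotated exons; the kit does not mark strand, and reads shared by near-identical genes were dropped. The files give no coordinates, and no gene lengths were used, so levels are not compared between genes.

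Counts were normalised with TMM and tested with edgeR 4.0.16 (R 4.3.3), by quasi-likelihood fits of the groups compared, without covariates. As in the study, genes entered a test once all embryos in either group reached 15 counts. Adjustment was by Benjamini-Hochberg over all genes tested. Genes were called at an adjusted p below 0.05 with at least a 2-fold change; for interactions the fold limit was left out. CPM values used library totals times TMM factors set over 24 embryos on 7557 genes; the pseudocount was 1 (0.25 as an alternative). The standard error was derived from the fold change and its F statistic. Alternatives were edgeR's exact test, DESeq2 1.42.0 (own size factors), these size factors in edgeR, a limit of 1 count, 15 counts in every embryo, thinned counts, a single fit of 24 embryos, sex as a covariate, a replicate block and leaving out each embryo; library totals without TMM and the fits and exact permutation tests of low-count genes (SciPy 1.17.1) were added after the data had been seen. The scripts were tested on simulated data.

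Named genes were the 7 members, genes of each list called under the limit of 15 counts or, where said, of 1 count, and the 3 genes with the highest r to each member with a mean of at least 1 CPM. The members and lists were chosen with earlier results of these data known. KIT was named for its position beside a member. 1 gene of the lists is not reported here.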

Additional observations from a re-analysis of the deposited data

Results flagged for a closer look

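The following values stood apart from the other embryos of their group by Dixon's criterion, for which chance alone gives about 1 in 20 groups; 28 groups were examined. GATA4 in A1, at 5.71 CPM, was the highest of 5 male in vivo derived embryos. GATA4 in C2, at 2.21 CPM, was the highest of 5 male embryos produced in serum-free medium, the other 4 having 0 counts. The rate of 1 in 20 does not hold where the other 4 values are tied at 0.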

How the results depend on the processing

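PDGFRA in vivo against serum kept its call under all alternatives run (log2 fold change 1.86 to 2.25), and so did HNF4A with the limit of 1 count (5.80 to 7.52). The number of members called rose from 1 to 2 with the limit of 1 count, in all embryos and in males. Between in vivo and serum-free embryos it fell from 1 to 0 with DESeq2, DESeq2's size factors, 15 counts in every embryo, thinned counts, a single fit over 24 embryos and library totals without TMM, and was 0 to 1 when an embryo was left out; in males it fell to 0 in the single fit and was 0 to 1 without an embryo. Between both media it rose from 0 to 1 with DESeq2, the limit of 1 count and the single fit, and was 0 to 1 without an embryo. In females against serum it rose from 0 to 1 with the exact test, DESeq2 and the single fit, and was 0 to 1 without an embryo. GATA4 between both media turned from -0.67 to 0.00012 without C2, in a range of -1.55 to 0.00012 over all omissions. The cause was not tested. At this depth SOX17, FOXA2 and GATA4 could not be compared further.

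Embryos with the same number did not deviate together (correlations of -0.127 to 0.0880; 0 of 7 pairs above 0.1 in each comparison), so the numbers were not taken as pairs. With the replicate block, 1, 1 and 0 members were called, as without it, while calls over all genes between both media went from 640 to 27, and HNF4A there had -4.62 (adjusted p = 0.127, quasi-likelihood test with the limit of 1 count).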
